A study of Mus musculus with 8 samples.

Results

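The Frizzled receptors are the 10 genes *Fzd1* to *Fzd10* of the mouse, taken here by their symbols in the NCBIM37 annotation, and they make up 10 of the 36536 genes with a count in the files. RNA was sequenced from cells that were sorted out of freshly dissected cochleas, with neither culture nor treatment, at postnatal day 1 (P1) and postnatal day 6 (P6). Every animal carried the LFng-GFP BAC transgene, B6;FVB-Tg(Lfng-EGFP)HM340Gsat/Mmucd, in which *Lfng* regulatory sequence drives GFP. At each age the fraction with the brightest GFP and a fraction without GFP were collected, which gave 4 groups (P1 GFP+, P1 GFP-, P6 GFP+ and P6 GFP-) of 2 replicate libraries each, 8 libraries in all. The transgene marks most but not all types of supporting cell, and dimmer cells, probably inner pillar cells among them, were not collected. GFP+ cells were therefore taken as a mixture of supporting cell types from pooled cochleas, but hair cell markers were higher in them too. The GFP- cells are a mixture of the cells without GFP that the dissection kept, and the lateral wall and stria vascularis were removed in a different manner at the later age, so that age and dissection cannot be told apart.

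Frizzled receptors span the membrane several times and bind secreted Wnt proteins through a cysteine-rich domain outside the cell. With the co-receptors Lrp5 or Lrp6 they stabilize β-catenin, and with other partners they act in planar cell polarity, the alignment of cells within an epithelium. In the inner ear *Fzd3* and *Fzd6* are known for the orientation of hair bundles, *Fzd4* as the receptor of Norrin in blood vessels, and *Fzd9* as a marker of a set of cochlear supporting cells. By sequence the family falls into *Fzd1*, *Fzd2* and *Fzd7*, into *Fzd5* and *Fzd8*, into *Fzd4*, *Fzd9* and *Fzd10*, and into *Fzd3* and *Fzd6*.

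Promoter sequence is given for *Fzd1*, *Fzd4* and *Fzd9*, because *Fzd9* and *Fzd4* led the receptors of P1 GFP+ cells and *Fzd1* those of P1 GFP- cells. Each stretch lies upstream of the RefSeq start site in the GRCm38.p6 assembly and is written 5′ to 3′ on the strand of its gene. That build differs from the NCBIM37 build used for gene positions. *Fzd1* is on the minus strand at chr5:4758217-4758466, *Fzd4* on the plus strand at chr7:89404116-89404365, and *Fzd9*, for which only the 67 bases outside the NCBIM37 transcript are shown, on the minus strand at chr5:135251231-135251297. Capitals mark matches on either strand to any of 5 motifs. These are the TATA box, which reads TATAAA, the CCAAT box, whose letters are its name, the GC box, which reads GGGCGG, the core of the TCF/LEF site, which reads CTTTGA, and the core of the RBPJ site, which reads TGGGAA. Matches that touch or overlap run together.
Fzd1: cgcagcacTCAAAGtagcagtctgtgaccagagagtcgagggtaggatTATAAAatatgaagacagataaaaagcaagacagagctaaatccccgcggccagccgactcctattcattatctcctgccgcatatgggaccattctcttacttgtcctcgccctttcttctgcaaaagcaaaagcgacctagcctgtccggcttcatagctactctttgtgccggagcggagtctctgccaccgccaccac
Fzd4: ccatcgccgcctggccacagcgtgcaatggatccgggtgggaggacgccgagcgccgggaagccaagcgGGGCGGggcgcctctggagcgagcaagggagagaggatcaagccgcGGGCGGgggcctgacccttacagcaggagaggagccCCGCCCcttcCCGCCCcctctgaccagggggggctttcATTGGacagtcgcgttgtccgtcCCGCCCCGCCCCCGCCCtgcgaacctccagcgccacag
Fzd9: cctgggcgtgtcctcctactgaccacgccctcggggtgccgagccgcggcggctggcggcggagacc

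The *Fzd4* stretch held 7 GC boxes and 1 CCAAT box, on the minus strand at positions -61 to -57 from the start site, and its GC content was 72.8%. The *Fzd1* stretch held no GC box, but a TATA box at positions -202 to -197 and a TCF/LEF core at positions -242 to -237, and its GC content was 51.2%. Over the 32851 mouse promoters of the same length, the median GC content was 52.4%, 32.7% held a GC box, 33.8% a CCAAT box, 12.4% a TATA box, 13.8% a TCF/LEF core and 21.6% an RBPJ core. Within the full 250 bases before the RefSeq start site, *Fzd9* and *Fzd10* each held 1 GC box and none of the other motifs, and both had a GC content of 76.4%. In these windows 183 bases of *Fzd9* and all bases of *Fzd10* lie within the NCBIM37 transcript, and so do both GC boxes. These matches describe the letters of the windows and were not tested for any effect on expression.

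Totals of gene counts ranged from 17769024 to 67695039 per library, and 64.7% to 76.2% of the listed reads or read pairs fell on genes. The 7 supporting cell markers, *Lfng* among them, were all higher in GFP+ cells at both ages, with a summed level of 8477 to 9002 CPM (counts scaled to a total of 1000000 gene counts) in P1 GFP+ libraries against 227 to 356 in P1 GFP- libraries. Hair cell markers were higher in GFP+ cells for 5 of 7 genes at each age, where 16.6% of all genes tested were higher at P1 and 7.72% at P6. *Myo7a* was among the 5 at P1 only and *Tmc1* at P6 only. Over the 7 genes the median log2 fold change was 3.32 at P1 and 2.74 at P6. Their sums were 689 to 790 CPM in P1 GFP+ and 394 to 456.5 CPM in P1 GFP- libraries. Most of these sums was *Myo6* (442 and 475.5 against 406 and 348 CPM), which did not pass at either age. Of 37 markers of other cochlear cells (endothelium, mesenchyme, cartilage, neurons, glia, macrophages, melanocytes and red blood cells), the GFP+ level was the lower one for 34 in the P1 comparison and for 10 in the P6 comparison by edgeR's test. Over all genes tested 20.7% were lower at P1 and 5.19% at P6. The glial marker *Sox10* was the 1 marker higher in GFP+ cells, at both ages. P6 GFP+ replicate 2 stood apart from replicate 1, with a summed level of 281 against 76.6 CPM for 7 endothelial markers and 3515 against 1759 CPM for 7 mesenchyme and fibrocyte markers. In P1 GFP+ libraries these sums were lower, at 30.1 to 34.1 and 444 to 498 CPM. Between the ages in GFP+ cells, 4 of 36 tested markers of other cochlear cells were higher at P6 and 0 were lower (2.86% and 1.95% of all genes tested). Nothing in the labels states that replicates came from separate animals, so p-values measure the spread between these libraries, which may be technical. In sorted bulk samples, fewer cells of a type and less RNA per cell cannot be told apart.

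All 10 receptors had counts in all 8 libraries, and their levels were compared with each other only after scaling to exon length (CPM per kilobase of annotated exon). *Fzd9* was the most abundant receptor in P1 GFP+ cells, with 192 ± 27.9 CPM per kilobase (SD, n = 2), followed by *Fzd4* with 66.4 ± 6.35 and *Fzd6* with 35.9 ± 0.372. *Fzd3*, *Fzd7* and *Fzd1* came next in these cells, from 19.9 down to 17.0 CPM per kilobase, and neighbours in that order overlapped between replicates. *Fzd5* (0.438 ± 0.186 CPM per kilobase) and *Fzd10* (0.0864 ± 0.0177) were the lowest.

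The order was different in P1 GFP- cells, where *Fzd1* led with 35.7 ± 1.19 CPM per kilobase (SD, n = 2). *Fzd9* (30.1 ± 0.492 CPM per kilobase) and *Fzd7* (27.8 ± 3.24) followed and overlapped between replicates. *Fzd4* stood at 1.99 ± 0.0526 CPM per kilobase in these cells, above only *Fzd5* at 0.798 ± 0.162. At P6, *Fzd9* led in both fractions, with 122 ± 22.2 CPM per kilobase in GFP+ and 93.6 ± 22.8 in GFP- cells. *Fzd6* (45.6 ± 3.02 CPM per kilobase) was in the second place in P6 GFP+ cells, and *Fzd1* (48.8 ± 1.68) in P6 GFP- cells. In P6 GFP+ cells the replicates of *Fzd4* and *Fzd7* overlapped, as did those of *Fzd1*, *Fzd3* and *Fzd8* with their neighbours.

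Summed over the 10 receptors, the level was 366 ± 24.7 CPM per kilobase (SD, n = 2) in P1 GFP+ and 143 ± 3.11 in P1 GFP- cells, against 256 ± 8.44 in P6 GFP+ and 223 ± 30.8 in P6 GFP- cells. The subfamily of *Fzd4*, *Fzd9* and *Fzd10* made up 70.7% of the sum in P1 GFP+ and 26.2% in P1 GFP- cells. At P6 its shares were 58.2% and 46.1%. The subfamily of *Fzd1*, *Fzd2* and *Fzd7* supplied 12.2% in P1 GFP+ and 58.1% in P1 GFP- cells, and 16.7% and 41.8% at P6. *Fzd3* and *Fzd6* together made up 15.3% and 12.1% at P1, and 21.8% and 9.06% at P6. *Fzd5* and *Fzd8* held from 1.82% to 3.48% in the 4 groups. These sums and shares are descriptions of the 2 libraries of a group and carry no test. They use *Fzd10* scaled to all of its exon bases, which may understate it, as described below.

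**Figure D1:**
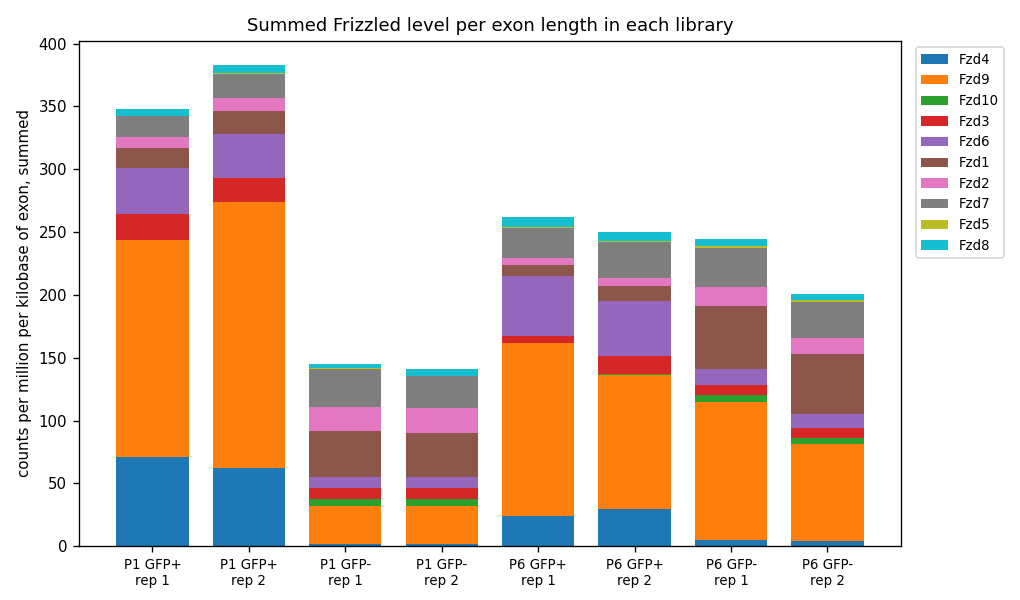
Stacked bars give the level of each Frizzled receptor in CPM per kilobase of exon in each of the 8 libraries, so that the height of a bar is the summed level. *Fzd9* and *Fzd4* fill most of the P1 GFP+ bars, which reach 348 and 383, while the P1 GFP- bars reach 141 and 145.

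The *Fzd10* level has a limit of its own. An annotated pseudogene on the same strand, also named *Fzd10*, covers 2430 of the 3250 exon bases of the receptor gene, which lies at chr5:129106719-129109968 on the plus strand in NCBIM37. The pseudogene had a count of 0 in all 8 libraries, and reads on both genes were set aside as ambiguous if the authors counted in a mode that requires 1 gene per read, which the sources used here do not give. Scaled to its 820 bases free of overlap, *Fzd10* reached 21.7 ± 0.963 CPM per kilobase (SD, n = 2) in P1 GFP- and 19.9 ± 1.16 in P6 GFP- cells, in place of 5.47 ± 0.243 and 5.01 ± 0.293. Comparisons of *Fzd10* between libraries do not depend on this length. The order, sums and shares above used all 3250 exon bases. With the 820 bases the share of its subfamily would be larger, most so in GFP- cells. In P1 GFP- cells *Fzd10* would then stand above *Fzd2* at 19.7 CPM per kilobase. No other Frizzled receptor shared exon bases with another gene, and no pair shared an identical run of coding sequence longer than 47 bases, against a read length of 100 bases. Coding identity was 64.4% to 81.1% (median 74.0%) in the 8 pairs within subfamilies and 56.6% to 69.7% in the other 37 pairs.

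GFP+ and GFP- cells were compared at P1 to ask which receptors were higher in the GFP+ fraction. Since 5 of 7 hair cell markers were higher there too, this comparison cannot assign a receptor to supporting cells rather than hair cells. Of the 10 receptors, 8 passed edgeR's quasi-likelihood test at an adjusted p below 0.01, 4 of them higher and 4 lower in GFP+ cells, where 37.3% of the 18682 genes tested passed (16.6% higher and 20.7% lower). With a fold above 4 as well, *Fzd4*, *Fzd6* and *Fzd9* were higher and *Fzd10* was lower, against 17.8% of all genes tested (6.46% higher and 11.4% lower). The median absolute log2 fold change was 1.11 over the 10 receptors and 0.59 over all genes tested.

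*Fzd4*, the Norrin receptor, had the largest enrichment of the family. It lies at chr7:96552876-96558620 (NCBIM37, plus strand, 2 exons), and its level was 261 and 228 CPM in the P1 GFP+ libraries against 7.47 and 7.19 CPM in the P1 GFP- libraries. The replicates agreed closely and the fractions were far apart, with a log2 fold change of 5.17 (SE 0.13; 35.9-fold, edgeR adjusted p = 9.99e-06). The summed level of the 7 endothelial markers ran the other way, at 30.1 to 34.1 CPM in P1 GFP+ and 351 to 429 CPM in P1 GFP- libraries.

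*Fzd9*, a single-exon gene at chr5:135724808-135727100 (NCBIM37, minus strand), had 396 and 486 CPM in P1 GFP+ against 68.1 and 69.7 CPM in P1 GFP- libraries. It was 6.87-fold higher in GFP+ cells (log2 2.78, SE 0.12, edgeR adjusted p = 2.28e-05). The polarity receptor *Fzd6* measured 147 and 145 CPM in P1 GFP+ and 33.5 and 35.3 CPM in P1 GFP- libraries, a log2 fold change of 2.19 (SE 0.09, edgeR adjusted p = 1.92e-05). Its partner *Fzd3* was also higher in GFP+ cells, with 89.3 and 79.2 against 39.4 and 36.3 CPM and a log2 fold change of 1.26 (edgeR adjusted p = 0.000287). The part of hair cells in the *Fzd3* and *Fzd6* differences was not tested. The libraries of the GFP+ and GFP- fractions did not overlap for any of the 10 receptors at P1, so a lack of overlap does not set these 4 apart. This separation describes 2 libraries a group, and its share over all genes was not computed.

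*Fzd10* was close to the limit of detection in P1 GFP+ cells, with 11 and 8 counts (0.240 and 0.321 CPM), while the P1 GFP- libraries held 695 and 1087 counts (18.3 and 17.2 CPM). It was 60.1-fold lower in GFP+ cells (log2 -5.91, SE 0.23, edgeR adjusted p = 1.87e-05). The exact 95% Poisson intervals of the GFP+ levels, which cover counting error only, were 0.120 to 0.429 and 0.139 to 0.633 CPM. *Fzd10* therefore moved against *Fzd4* and *Fzd9*, the other members of its subfamily.

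The subfamily of *Fzd1*, *Fzd2* and *Fzd7*, receptors that are broadly expressed in development, was lower in P1 GFP+ cells as a whole. *Fzd1* measured 70.5 and 78.4 CPM in GFP+ against 159.8 and 152 CPM in GFP- libraries (log2 -0.97, SE 0.09, edgeR adjusted p = 0.000308). *Fzd2* measured 31.8 and 38.6 against 70.9 and 72.3 CPM (log2 -0.93, edgeR adjusted p = 0.000761), and *Fzd7* 80.6 and 90.4 against 144 and 122 CPM (log2 -0.54, edgeR adjusted p = 0.0089). The changes were thus smaller than for the receptors enriched in GFP+ cells. *Fzd8*, with 18.8 and 23.1 against 11.1 and 16.8 CPM, and *Fzd5*, with 2.12 and 3.94 against 6.31 and 4.72 CPM, did not pass the test (log2 0.68, edgeR adjusted p = 0.0423, and log2 -0.79, edgeR adjusted p = 0.097).

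To leave out a library, the 7 remaining libraries of the 4 groups were fitted together, so that a group left with 1 library is assumed to vary like the others, and the fit of all 8 libraries is the one to set beside it. The calls for *Fzd4*, *Fzd6*, *Fzd9* and *Fzd10* held in the fit of all 8 and with any 1 of the 4 P1 libraries left out. *Fzd3* and *Fzd7* did not pass in the fit of all 8 (edgeR adjusted p of 0.0152 and 0.013), nor without each of the 4 in turn, with edgeR adjusted p from 0.036 to 0.0868 and from 0.0151 to 0.114. *Fzd2* lost its call without P1 GFP+ replicate 1 (edgeR adjusted p = 0.0218), and *Fzd1* without either P1 GFP+ library or P1 GFP- replicate 1 (edgeR adjusted p of 0.0243, 0.0164 and 0.0105), and both passed in the fit of all 8.

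**Figure D2:**
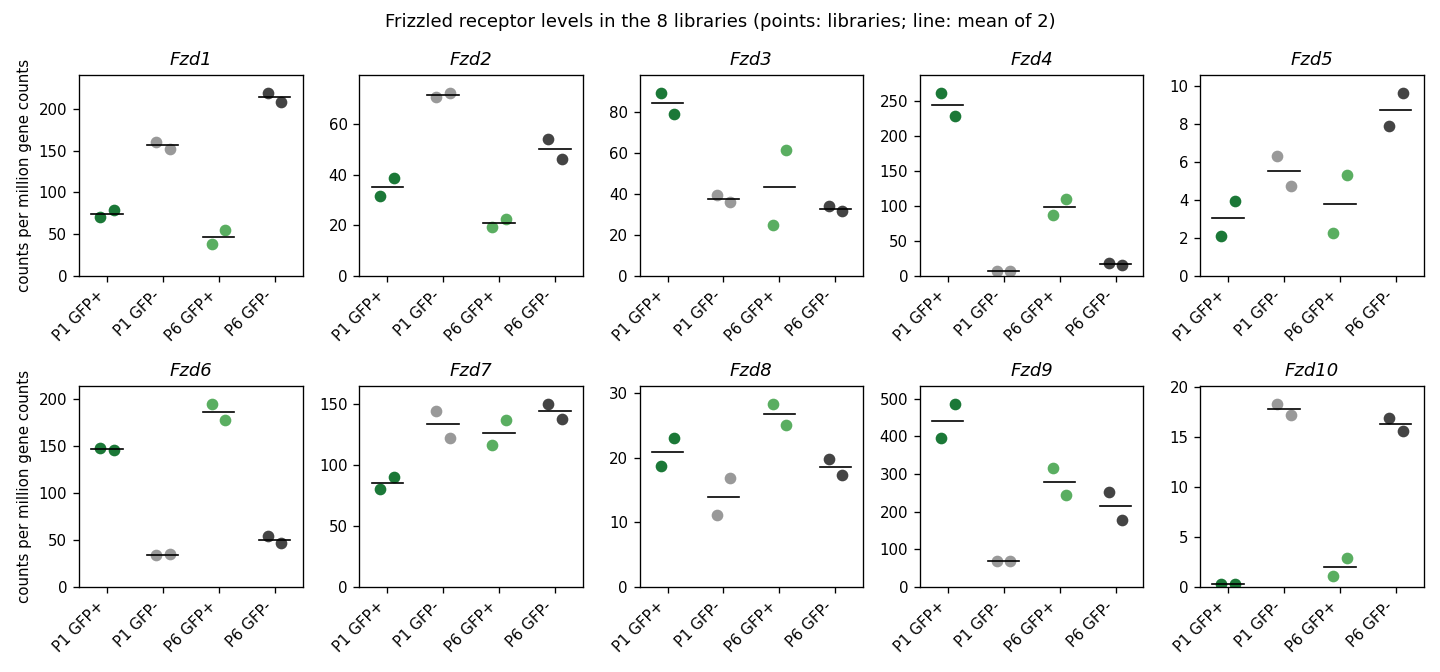
Each panel gives 1 Frizzled receptor on its own linear axis in CPM, with points for the 2 libraries of a group and a line at their mean. *Fzd4* stands at 261 and 228 in P1 GFP+ cells and at 7.47 and 7.19 in P1 GFP- cells, *Fzd9* in GFP- cells is higher at P6 than at P1, and the P6 GFP+ replicates of *Fzd3* lie far apart.

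At P6, 5 of the 10 receptors passed edgeR's test between GFP+ and GFP- cells, against 12.9% of the 18294 genes tested. *Fzd4* and *Fzd6* were higher in GFP+ cells (7.72% of all genes tested were higher) and *Fzd1*, *Fzd2* and *Fzd10* were lower (5.19% were lower). *Fzd4*, *Fzd1* and *Fzd10* also exceeded a fold of 4, against 7.98% of all genes tested (4.88% higher and 3.1% lower).

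*Fzd4* measured 87.2 and 109 CPM in P6 GFP+ against 19.3 and 15.3 CPM in P6 GFP- libraries. The enrichment was 5.64-fold (log2 2.50, SE 0.20, edgeR adjusted p = 0.0014). The fractions did not overlap for *Fzd4*, as for 8 of the 10 receptors in all at P6. The endothelial markers summed to 76.6 and 281 CPM in the P6 GFP+ and to 353 and 350.5 CPM in the P6 GFP- libraries. Most of the GFP- sum was *Emcn*, with 206 and 213 CPM there against 14.5 and 52.4 CPM in P6 GFP+ libraries. Of the 7 markers, 0 passed edgeR's test between these fractions, and their median log2 fold change was -0.07. The part of these markers in the *Fzd4* difference was not tested. Without P6 GFP+ replicate 2 the log2 fold change of *Fzd4* was 2.31 (edgeR adjusted p = 1.52e-05). *Fzd6* measured 195 and 177 CPM in P6 GFP+ and 53.9 and 46.7 CPM in P6 GFP- libraries, a 3.68-fold difference (log2 1.88, SE 0.18, edgeR adjusted p = 0.00201).

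*Fzd1* was 4.66-fold lower in P6 GFP+ cells, with 37.8 and 54.5 against 219 and 208 CPM (log2 -2.22, SE 0.22, edgeR adjusted p = 0.00223). *Fzd2* measured 19.2 and 22.6 against 54.2 and 46.4 CPM (log2 -1.27, SE 0.18, edgeR adjusted p = 0.00585). *Fzd10* measured 1.07 and 2.85 CPM in GFP+ libraries, from 19 and 85 counts, against 17.0 and 15.6 CPM in GFP- libraries (log2 -3.02, SE 0.44, edgeR adjusted p = 0.00663). These 3 receptors were therefore on the GFP- side at both ages. The 7 mesenchyme and fibrocyte markers summed to 1759 and 3515 CPM in P6 GFP+ and to 18904 and 18130 CPM in P6 GFP- libraries. Of these markers 3 passed edgeR's test as lower in P6 GFP+ cells and 0 as higher, and *Lum* had a log2 fold change of 0.21. The part of these markers in the difference was not tested.

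*Fzd9* did not pass the test at P6, with 316 and 244 CPM in GFP+ and 251 and 178 CPM in GFP- libraries. The fractions overlapped (log2 0.38, SE 0.26, edgeR adjusted p = 0.306). *Fzd7* (116 and 137 against 149.97 and 138 CPM), *Fzd8* (28.3 and 25.0 against 19.7 and 17.2 CPM) and *Fzd5* (2.25 and 5.32 against 7.86 and 9.62 CPM) had log2 fold changes of -0.20, 0.52 and -1.20, with edgeR adjusted p of 0.411, 0.079 and 0.0783.

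*Fzd3* at P6 was decided by a single library. It measured 25.0 and 61.7 CPM in the GFP+ replicates, on either side of the 34.0 and 31.7 CPM in GFP- cells (log2 0.39, SE 0.39, edgeR adjusted p = 0.49). Without P6 GFP+ replicate 2 the log2 fold change was -0.41 (edgeR adjusted p = 0.0547), and without P6 GFP+ replicate 1 it was 0.83 (edgeR adjusted p = 0.00194). *Fzd5* passed without P6 GFP+ replicate 2, with a log2 fold change of -1.97 (edgeR adjusted p = 0.00487). In the fit of all 8 libraries neither passed (edgeR adjusted p of 0.414 for *Fzd3* and 0.0447 for *Fzd5*). The 5 calls at P6 held with each of the 4 P6 libraries left out.

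**Figure D3:**
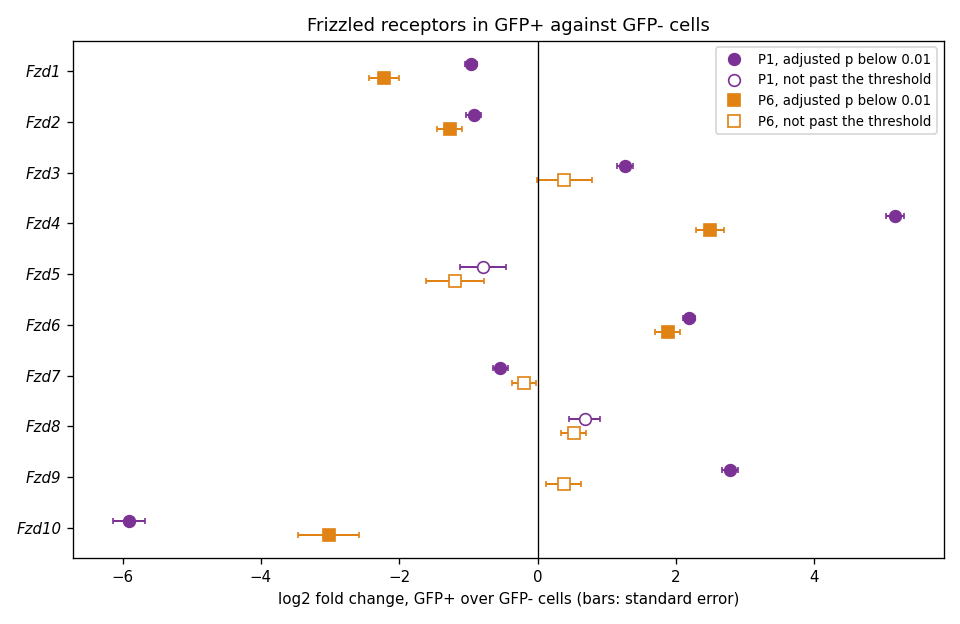
Log2 fold changes of GFP+ over GFP- cells for the 10 Frizzled receptors at P1 (circles) and P6 (squares), with bars for 1 standard error and filled symbols for an edgeR adjusted p below 0.01. *Fzd4* goes from 5.17 at P1 to 2.50 at P6 and *Fzd9* from 2.78 to 0.38, while *Fzd6* stays near 2 with 2.19 and 1.88.

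The interaction of age and fraction was tested over all 8 libraries to ask whether the ratio of GFP+ to GFP- cells differed between the ages. It passed for 2 of the 10 receptors, against 1.93% of the 19233 genes tested, and in both the ratio was smaller at P6 (smaller for 0.988% and larger for 0.946% of all genes tested). For *Fzd4* the P6 log2 ratio minus the P1 log2 ratio was -2.69 (SE 0.25, edgeR adjusted p = 0.00141), a ratio 6.44-fold smaller at P6. For *Fzd9* it was -2.42 (SE 0.32, edgeR adjusted p = 0.00531), a ratio 5.34-fold smaller. *Fzd1* (-1.27, edgeR adjusted p = 0.0185) and *Fzd10* (2.88, edgeR adjusted p = 0.025) did not pass, and the estimate for *Fzd6* was -0.33 (SE 0.19, edgeR adjusted p = 0.388).

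With 1 library left out, *Fzd4* lost its call in 3 of 8 cases, without P1 GFP+ replicate 1, P1 GFP- replicate 2 or P6 GFP- replicate 1 (edgeR adjusted p of 0.0147, 0.0102 and 0.012). *Fzd9* lost its call in 6 of 8 cases (edgeR adjusted p from 0.0151 to 0.0355) and kept it without either P6 GFP+ library, and its log2 difference was between -2.68 and -2.11 in all 8 cases. Without P6 GFP+ replicate 2, *Fzd1* (-1.53, edgeR adjusted p = 0.000952) and *Fzd3* (-1.65, edgeR adjusted p = 0.00135) passed as well, and without P6 GFP+ replicate 1, *Fzd1* (-1.06, edgeR adjusted p = 0.0035) and *Fzd10* (3.34, edgeR adjusted p = 0.000372) did.

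P6 and P1 were then compared within each fraction, and these comparisons share their libraries with those between fractions, so the values are set side by side and are not independent evidence. In GFP+ cells 0 of the 10 receptors passed edgeR's test, against 4.81% of the 17213 genes tested (2.86% higher and 1.95% lower). At an unadjusted p below 0.05 there were 8 receptors, 4 higher and 4 lower, where 38.2% of all genes tested reached that level, and DESeq2 called 3 receptors, where it called 17.6% of all genes tested. In GFP- cells 3 of the 10 receptors passed edgeR's test, all higher at P6, against 7.38% of the 18920 genes tested (5.04% higher and 2.34% lower).

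*Fzd4* in GFP+ cells lay just outside the threshold, with 261 and 228 CPM at P1 against 87.2 and 109 CPM at P6. The log2 fold change was -1.23 (SE 0.16, edgeR adjusted p = 0.0101), and the ages did not overlap, as for 9 of the 10 receptors in all. It passed in the fit of all 8 libraries (edgeR adjusted p = 0.00191) and there without either P6 GFP+ library (0.0029 and 0.00108), but not without either P1 GFP+ library (0.0237 and 0.0115). In GFP- cells *Fzd4* rose from 7.47 and 7.19 CPM at P1 to 19.3 and 15.3 CPM at P6, a 2.70-fold change (log2 1.44, SE 0.19, edgeR adjusted p = 0.00364). The GFP- level of *Fzd4* was still the lower one at P6.

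*Fzd9* in GFP- cells rose 3.57-fold, from 68.1 and 69.7 CPM at P1 to 251 and 178 CPM at P6 (log2 1.84, SE 0.19, edgeR adjusted p = 0.00144). In GFP+ cells it measured 396 and 486 CPM at P1 and 316 and 244 CPM at P6, and the log2 fold change of -0.56 (SE 0.20) did not pass (edgeR adjusted p = 0.107). The supporting cell markers in GFP- libraries summed to 227 and 356 CPM at P1 and 312 and 275 CPM at P6, and their part in the *Fzd9* difference was not tested.

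*Fzd1* in GFP- cells rose from 159.8 and 152 CPM to 219 and 208 CPM (log2 0.64, SE 0.11, edgeR adjusted p = 0.00926), while in GFP+ cells it measured 70.5 and 78.4 CPM at P1 and 37.8 and 54.5 CPM at P6 (log2 -0.60, SE 0.18, edgeR adjusted p = 0.0778). *Fzd6* in GFP- cells lay just outside the threshold, with 33.5 and 35.3 CPM at P1 and 53.9 and 46.7 CPM at P6 (log2 0.74, SE 0.13, edgeR adjusted p = 0.0102). In GFP+ cells its log2 fold change was 0.44 (edgeR adjusted p = 0.0699).

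Between ages in GFP- cells, *Fzd4* and *Fzd9* passed in the fit of all 8 libraries (edgeR adjusted p of 0.00275 and 0.00298) and *Fzd1* did not (0.0327). Without any of the 4 GFP- libraries, *Fzd1* (edgeR adjusted p from 0.103 to 0.198) and *Fzd4* (0.0104 to 0.0277) did not pass. *Fzd9* kept its call without P6 GFP- replicate 2 (edgeR adjusted p = 0.00904) and lost it without any of the other libraries (0.0179 to 0.0273). The 3 log2 fold changes kept their sign in all of these fits.

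*Fzd10* had the largest fitted change with age in GFP+ cells and was also the least certain. Its counts were 11 and 8 at P1 and 19 and 85 at P6, which is 0.240 and 0.321 CPM against 1.07 and 2.85 CPM (log2 2.93, SE 0.59, edgeR adjusted p = 0.029). It passed in the fit of all 8 libraries (log2 2.97, edgeR adjusted p = 0.0031) and there without either P6 GFP+ library, with log2 fold changes of 3.44 and 2.09 (edgeR adjusted p of 5.19e-05 and 0.0032), but not without either P1 GFP+ library (0.0434 and 0.0218). Over the 773 genes that were at least 16-fold lower in GFP+ cells at P1, the median of log2(CPM + 0.5) in P6 GFP+ replicate 2 minus replicate 1 was 0.995, and for *Fzd10* this difference was 1.09. The part of GFP- RNA in the *Fzd10* level of P6 GFP+ libraries was not tested. In GFP- cells *Fzd10* measured 18.3 and 17.2 CPM at P1 and 17.0 and 15.6 CPM at P6 (log2 0.07, edgeR adjusted p = 0.788).

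Of the other receptors, *Fzd7* in GFP+ cells had a log2 fold change of 0.65 (edgeR adjusted p = 0.0261) from P1 to P6, *Fzd2* one of -0.66 (edgeR adjusted p = 0.0463), *Fzd3* one of -0.87 (edgeR adjusted p = 0.173), *Fzd8* one of 0.45 (edgeR adjusted p = 0.13) and *Fzd5* one of 0.44 (edgeR adjusted p = 0.559). In GFP- cells the same 5 receptors had log2 fold changes of 0.30, -0.32, -0.01, 0.60 and 0.86, in that order, with edgeR adjusted p from 0.0414 for *Fzd5* to 0.964 for *Fzd3*. Without P6 GFP+ replicate 2, *Fzd1* (log2 -0.85, edgeR adjusted p = 0.00195) and *Fzd3* (log2 -1.62, edgeR adjusted p = 0.000218) passed in GFP+ cells, and without P6 GFP+ replicate 1, *Fzd7* did (log2 0.75, edgeR adjusted p = 0.00575), while in the fit of all 8 libraries these 3 had edgeR adjusted p of 0.0319, 0.0852 and 0.0118.

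**Figure D4:**
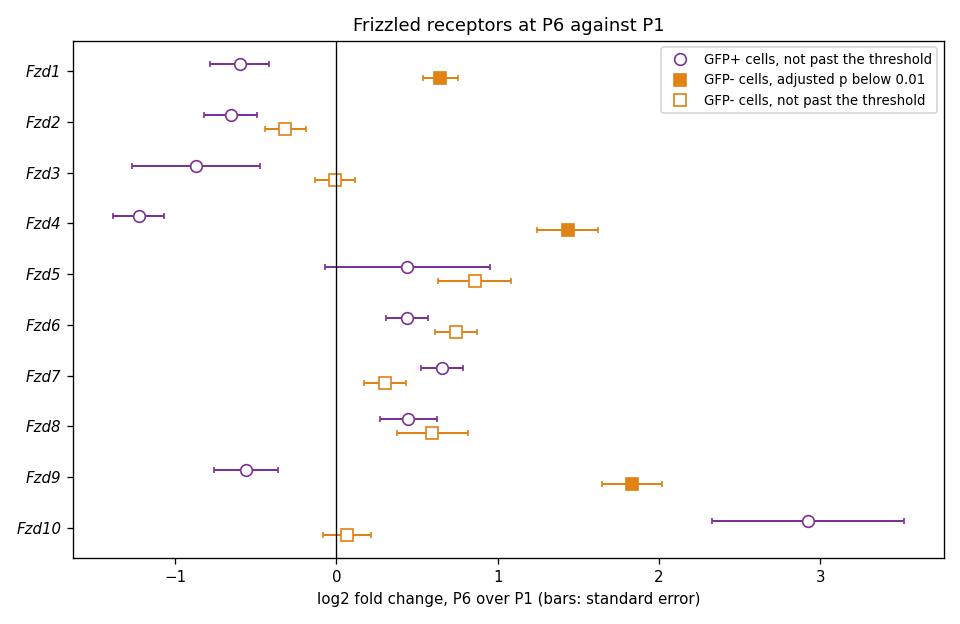
Log2 fold changes from P1 to P6 for the 10 Frizzled receptors in GFP+ cells (circles) and GFP- cells (squares), with bars for 1 standard error and filled symbols for an edgeR adjusted p below 0.01. *Fzd4* and *Fzd9* lie on opposite sides of 0 in the 2 fractions, at -1.23 and 1.44 and at -0.56 and 1.84.

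The partners with which Frizzled receptors form complexes were mostly lower in GFP+ cells at P1. Of 10 co-receptors and partners, 1 was higher and 6 were lower (16.6% and 20.7% of all genes tested), with a median log2 fold change of -1.33 against 0.01 over all genes tested. The exception was *Tspan12*, a tetraspanin that acts with Fzd4 in Norrin signaling, which measured 121 and 119 CPM in P1 GFP+ against 12.6 and 20.7 CPM in P1 GFP- libraries (log2 2.95, SE 0.23, edgeR adjusted p = 0.000174). It remained higher in GFP+ cells at P6, with 163 and 109 against 26.5 and 23.0 CPM (log2 2.46, edgeR adjusted p = 0.00255). *Lrp5* (log2 0.23, edgeR adjusted p = 0.05), *Lrp6* (-0.11, 0.408) and *Ryk* (-0.07, 0.497), 3 Wnt co-receptors, did not pass between fractions at P1. The lower genes were *Gpr124* (log2 -5.25, edgeR adjusted p = 1.09e-05) and *Reck* (-2.65), which act together in Wnt7 signaling of blood vessels, and *Ror1* (-2.07), *Ror2* (-1.72), *Musk* (-1.68) and *Ptk7* (-0.98). The 7 endothelial markers were lower in P1 GFP+ cells too. At P6, *Tspan12* was higher and *Reck* and *Ptk7* were lower, and the interaction passed for *Ror2* alone, whose GFP+ level was 4.52 and 5.22 CPM at P1 and 12.7 in both libraries at P6 (log2 difference of ratios 1.82, edgeR adjusted p = 0.00687).

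Among the Wnt and Norrin ligands, 2 were higher and 6 lower in GFP+ cells of 12 tested at P1, and 2 were higher and 2 lower of 13 at P6. Over all genes tested, 16.6% were higher and 20.7% lower at P1, and 7.72% and 5.19% at P6, so the share of ligands that were higher at P1 was close to that of all genes. *Wnt7a* measured 252 and 271 CPM in P1 GFP+ against 2.80 and 9.02 CPM in P1 GFP- libraries (log2 5.53, SE 0.51, edgeR adjusted p = 0.000322), and its log2 fold change at P6 was 6.99. *Wnt7b* was the other one, with log2 fold changes of 2.10 and 2.93 (edgeR adjusted p of 0.00714 and 0.000989). *Ndp*, which encodes the Fzd4 ligand Norrin, was on the opposite side to its receptor, with 1.53 and 1.57 CPM in P1 GFP+ and 18.7 and 17.7 CPM in P1 GFP- libraries (log2 -3.45, SE 0.17, edgeR adjusted p = 3.6e-05), and with a log2 fold change of -2.48 at P6 (edgeR adjusted p = 0.00519).

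Secreted antagonists of the pathway went both ways, with 3 higher and 4 lower of 12 at P1 and 2 higher and 3 lower of 12 at P6, read against the same shares of all genes. The higher ones at P1 were *Frzb* (log2 4.23), *Kremen1* (4.05), which is a membrane receptor for Dkk proteins, and *Sfrp1* (3.26). *Frzb* encodes a secreted protein with a Frizzled-like cysteine-rich domain, and its interaction of age and fraction had the same sign as those of *Fzd4* and *Fzd9* (log2 -4.40, SE 0.23, edgeR adjusted p = 0.000194). In the list of receptor turnover, which covers R-spondins, their Lgr receptors, the ubiquitin ligases that remove Frizzled proteins from the membrane, and *Shisa2* and *Shisa3*, whose family retains Frizzled proteins inside the cell, 2 genes were higher and 6 lower of 10 at P1, and 2 were higher and 3 lower at P6. *Lgr5* was higher in GFP+ cells at both ages (log2 3.62 and 3.27, edgeR adjusted p of 2.37e-05 and 0.000762), while *Rspo1* was lower at P1 (log2 -5.41, edgeR adjusted p = 0.000113). *Lgr6* passed the interaction in the opposite direction to *Fzd4* (log2 3.10, edgeR adjusted p = 0.00195).

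Of 24 genes of the intracellular relay, 5 were higher and 5 lower in P1 GFP+ cells and 1 passed at P6, *Tcf7*, which was lower and is named here after its value was seen. The P1 counts of the relay were close to the 16.6% higher and 20.7% lower of all genes tested. Those shares, with 7.72% higher and 5.19% lower at P6, also apply to the feedback targets and polarity genes that follow. Some genes are in more than 1 list, with *Lgr5* both in the turnover list and among the feedback targets, so the counts of the lists are not independent. Of 11 feedback targets 2 were higher and 8 lower at P1, with *Lgr5* highest and *Lef1* (log2 -5.25), *Apcdd1* (-5.07) and *Nkd2* (-4.84) lowest, and 2 were higher and 5 lower at P6. The core genes of planar polarity, with which *Fzd3* and *Fzd6* act, had 6 higher and 2 lower of 13 at P1. *Celsr1* (log2 2.40), *Ankrd6* (2.28) and *Celsr2* (2.26) led the higher ones, and at P6 2 genes were higher and 2 lower. Between the ages, the edgeR adjusted p of the 10 co-receptors and partners ran from 0.0117 to 0.963 in GFP+ cells and from 0.0132 to 0.603 in GFP- cells. In GFP- cells 5 of 13 ligands were higher at P6 (5.04% of all genes tested), led by *Wnt2* (log2 2.96, edgeR adjusted p = 0.0051), as were 4 of 12 antagonists, among them *Sfrp4* (log2 4.61) and *Frzb* (log2 2.29), with 1 lower (2.34% of all genes tested). In GFP+ cells 3 of 12 antagonists were lower at P6 (1.95% of all genes tested), *Frzb* by the most (log2 -2.08, edgeR adjusted p = 0.00273), and *Lgr6* of the turnover list was higher (2.86% of all genes tested were, log2 2.82, edgeR adjusted p = 0.00273).

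The expression pattern of each receptor over the 8 libraries was also matched to those of 19232 other genes, by the root mean square difference of log2(CPM + 0.5) after each gene was centred on its mean. *Fzd4* had few close matches, with *Rhbdl2* at 0.294 and *Corin* at 0.365 the nearest and 1 gene within 0.3. *Fzd9* was nearest to *Glb1l2* (0.227) and *Rnf182* (0.242), with 6 genes within 0.3, and *Fzd10* to *Pcolce* (0.137) and *Pid1* (0.150), with 45. *Fzd6* was nearest to *D630039A03Rik* (0.127) and *Lnx1* (0.144), *Fzd1* to *Slfn2* (0.145) and *Dpy19l1* (0.157), and *Fzd3* to *Zfp169* (0.118) and *Gab2* (0.119). *Fzd2* was nearest to *Sardh* (0.0831) and *Marcks* (0.105), *Fzd5* to *Chrne* (0.176) and *Ifi44* (0.218), *Fzd7* to *Cpne8* (0.0874) and *Ppp2r5a* (0.0886), and *Fzd8* to *Mon1a* (0.0878) and *Gm16517* (0.0882). Within the family the closest pair was *Fzd1* and *Fzd2* (0.435), whereas *Fzd4* and *Fzd10* of the same subfamily differed by 3.88. These distances are descriptions over 8 libraries that share 4 groups, and a receptor whose level varied little is close to many genes.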

How the data were processed

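RNA-seq counts of the 8 libraries were used as deposited. The authors aligned the paired reads to mm9 (NCBIM37) with TopHat (1.4.0 in the submitters' processing notes, which also list HTSeq and DESeq 1.9.2) and deposited raw counts per Ensembl gene, without normalization. Reads on no gene (13.8% to 25.6%), ambiguous reads (2.05% to 2.53%) and reads aligned at several places (7.41% to 9.60%) were listed apart and left out. The counting mode and strand setting are not given in the sources used here. Symbols and exon lengths are those of NCBIM37, in which 34391 of the 36536 genes were found. Promoters are from RefSeq (GRCm38.p6) and were searched for 6 of the 10 receptors. Entries on chromosome 18, where *Fzd8* lies, were left out of the search for receptors.

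Each pair of groups was fitted on its 4 libraries, and the interaction on all 8, with edgeR 4.0.16 in R 4.3.3 (filterByExpr with minimum count 10 and minimum total count 15, TMM, quasi-likelihood test, Benjamini-Hochberg over all genes tested). All tests were two-sided. A gene passed at p and adjusted p below 0.01, a fold above 4 was a further criterion, and the standard error is the log2 fold change divided by the square root of F. CPM is the count scaled to a total of 1000000 gene counts, without the TMM factor. Figures were drawn with matplotlib 3.10.9 in Python 3.11.15. The procedure was also run on simulated counts with the same spread for all genes. That setting differs from these data, and no result here rests on it. The Frizzled genes and the pathway lists were chosen with earlier results of these data known. All 10 receptors were named, all co-receptors and partners could be, and from the other lists at most the 3 largest changes in each direction that met both criteria. All 155 list genes were matched to a gene. The nearest patterns were the 2 genes with the smallest distance to a receptor.

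The alternatives replaced TMM by library totals or by the size factors of DESeq2 1.42.0, and further ones were its test, no filter, all 8 libraries in each fit, an adjusted p below 0.05, a fold above 4, a replicate block and leaving out each library, with the 7 remaining libraries of the 4 groups fitted together because 3 would leave 1 residual degree of freedom. Depth set the precision, since 3 counts were worth 0.0443 to 0.169 CPM and intervals cover counting error only.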

Additional observations from a re-analysis of the deposited data

Results flagged for a closer look

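The ratio of GFP+ to GFP- cells differed between the ages for 2 receptors by the test of the interaction itself in edgeR. For *Fzd4* the P6 log2 ratio minus the P1 log2 ratio was -2.69 (SE 0.25, edgeR adjusted p = 0.00141), with log2 ratios of 5.17 at P1 and 2.50 at P6. For *Fzd9* the difference was -2.42 (SE 0.32, edgeR adjusted p = 0.00531), with log2 ratios of 2.78 and 0.38, but it did not pass in 6 of 8 fits that left out 1 library (edgeR adjusted p from 0.0151 to 0.0355). The difference for *Fzd4* did not pass in 3 of 8 such fits. The 7 supporting cell markers had a median difference of -0.61, where the median over all genes tested was 0.03. The lists of markers of other cochlear cells had medians from 0.70 for cartilage to 5.21 for melanocytes, with 2.05 for endothelium and for mesenchyme. Of these 37 markers 1 passed the interaction as higher and 0 as lower (0.946% and 0.988% of all genes tested). The part of other cells in the *Fzd4* and *Fzd9* differences was not tested.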

How the results depend on the processing

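The values of the 10 receptors in the 5 comparisons were recomputed under each alternative setting. Apart from leaving out libraries, 253 of 290 receptor values kept their direction and their side of the threshold, 27 newly passed, 7 no longer passed and 3 reversed. Counts of receptors are given in the order P1 fractions, P6 fractions, ages in GFP+ cells, ages in GFP- cells and interaction, and were 8, 5, 0, 3 and 2 in edgeR. They were 8, 5, 3, 5 and 4 with the DESeq2 test, 10, 6, 6, 6 and 5 without a filter, 9, 5, 4, 5 and 4 at an adjusted p below 0.05, and 4, 3, 0, 0 and 2 with a fold above 4. Size factors from DESeq2 gave 8, 5, 0, 4 and 2, and library totals gave 8, 5, 1, 2 and 2. With all 8 libraries in the fits of pairs they were 6, 5, 2 and 2. The counts over all genes are not given here for the size factors, and only in part for library totals. Receptor counts at those settings therefore lack that comparison. Counts over all genes were 6972, 2363, 828, 1397 and 372. They became 7832, 4891, 3037, 3050 and 1439 with DESeq2, 9233, 5309, 4090, 3993 and 2400 without a filter, 10022, 6122, 3511, 3619 and 1228 at 0.05, and 3331, 1459, 441, 350 and 242 with a fold above 4. With all 8 libraries they were 6053, 5157, 2361 and 769. The labels do not state whether libraries with the same replicate number belong together. The correlation of replicate differences between groups was 0.021, 0.086, -0.083 and -0.277 in the 4 pairs. Paired libraries can also correlate weakly, so these values cannot decide it. A replicate block gave 7, 5, 1, 2 and 1 receptors (in the interaction edgeR adjusted p = 0.00568 for *Fzd4* and 0.0127 for *Fzd9*) and 6363, 2837, 1079, 1040 and 151 genes. Leaving out 1 library, with the 7 others fitted together, gave 4 to 6, 5 to 6, 0 to 4, 0 to 1 and 0 to 4 receptors, and 3122 to 4440, 2040 to 6722, 463 to 3664, 16 to 385 and 28 to 1407 genes. Library totals moved the median of all genes by -0.10 at P1, by -0.19 between ages in GFP- cells and by 0.12 in the interaction. Higher and lower calls became 1282 and 514 at P6 (from 1413 and 950), 564 and 575 between ages in GFP- cells (from 954 and 443) and 192 and 127 in the interaction (from 182 and 190).

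The reversed values were small, and none had passed. *Fzd3* at P6 was -0.41 without P6 GFP+ replicate 2, and *Fzd5* between ages in GFP+ cells was -0.27 without it, in ranges up to 0.83 and 0.92 over the libraries left out. Between ages in GFP- cells *Fzd10* was -0.13 with library totals, and *Fzd3* was 0.022 without a filter, 0.020 with all 8 libraries, 0.047 without P1 GFP- replicate 1 and 0.11 without P6 GFP- replicate 2. In the interaction *Fzd5* was 0.061 without P1 GFP+ replicate 2 and 0.021 without P6 GFP+ replicate 1, and *Fzd8* was 0.13 without P1 GFP- replicate 1, in ranges down to -1.16 and -0.42. The cause of these changes was not tested. Depth limits *Fzd10* and *Fzd5* in GFP+ cells most, with 8 to 85 and 40 to 159 counts a library.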
